A study of Homo sapiens with 6 samples.

Results

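The translation initiation factor genes of PC-3 cells were read in 3 conditions: untreated control cells, cells given 1 mM GPNA and cells given 10 mM BenSer, each for 48 h. PC-3 is an established prostate cancer line. GPNA (L-gamma-glutamyl-p-nitroanilide) and BenSer (benzylserine) are 2 inhibitors used in the study against ASCT2, a transporter that brings glutamine into the cell, and they were given at different doses. Total RNA was sequenced, and 2 libraries per group carry labels (6 samples). The members are the genes whose names begin with EIF1 to EIF6, without the EIF2 kinases (EIF2AK), the EIF4E-binding and transporter proteins (EIF4EBP, EIF4ENIF), EIF4B and pseudogenes. Of 64 matching names, 46 were members, among 19491 listed genes. They comprised 44 protein-coding genes and 2 non-coding RNAs that the tables name EIF1AX-AS1 and EIF3J-AS1. The annotation names the latter EIF3J-DT, a divergent transcript that does not overlap EIF3J. EIF1AY, EIF2S3L, EIF2S3B and EIF4E1B, 4 further names of the family, were not among the listed genes.

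Initiation factors bring the small ribosomal subunit to the start codon of an mRNA. eIF2, loaded with GTP, carries the initiator tRNA, and eIF2B recharges eIF2 with GTP. Phosphorylation of the eIF2 alpha subunit by stress kinases, such as the kinase that senses lack of amino acids, turns eIF2 into an inhibitor of eIF2B. The eIF4 factors recognise the mRNA cap and unwind the leader, under control of mTORC1, and the large eIF3 complex joins them to the small subunit. eIF1, eIF1A and eIF5 set start codon recognition, and eIF5B joins the large subunit.

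The library totals lay between 23077986 and 32178154 reads, of which 51.6% to 52.7% fell on listed genes. Levels are CPM, the reads of a gene per 1000000 reads of its library. Over 44 initiation factor genes, the columns numbered 1 and 2 in a group differed by no more than sampling noise would give. The ratio of chi-square to its degrees of freedom was 0.834 for untreated cells (p = 0.774), 0.799 for GPNA (p = 0.827) and 0.9 for BenSer (p = 0.661). A chi-square test summed across the transcriptome gave a ratio of 1.06 in control (15623 genes, p = 1.29e-08), 1.05 in GPNA (16003 genes, p = 3.24e-05) and 1.05 in BenSer (16498 genes, p = 9.59e-06), counting genes with 20 reads or more over both columns. That excess over counting error was small, and each group was taken as 1 sample, differences have no replicate check, and no p-value for a treatment is given. Differences are in log2(mean CPM + 1), a scale that understates the change of genes with few reads. Brackets hold 95% intervals (exact, Clopper-Pearson) from the pooled reads of each group, which cover counting error only. A gene was counted as lower or higher at 1.2-fold, if its mean was 5 reads or more in one of the groups compared.

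The cells carried the epithelial transcripts KRT8 (289 CPM in the control), KRT18 (109 CPM) and EPCAM (97.8 CPM) and the mesenchymal transcript VIM (187 CPM). KLK3, which encodes prostate-specific antigen, was not among the listed genes, nor were the leukocyte, endothelial and liver markers PTPRC, PECAM1 and ALB. COL1A1 (5.57 CPM) and ACTA2 (0.583 CPM), markers of fibroblast and muscle cells, were low. VIM differed by -0.38 (-0.42 to -0.34) and KRT18 by -0.24 (-0.29 to -0.18) between BenSer and the control. Whether these markers bear on the initiation factors was not tested.

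Start sites are shown for 2 sets of members: those whose annotated transcript begins with C and at least 4 further pyrimidines, a pattern known from mRNAs whose translation follows mTORC1, and the members with the lowest difference with BenSer. Each window spans 15 bases before and 15 from the start on the gene's strand, 5′ to 3′, from RefSeq on GRCh38.p14. Capitals mark the pyrimidine run from the first transcribed base. Each window therefore covers the first bases of the first exon and the promoter just before it.
EIF2A, chr3:150546772-150546801, plus strand: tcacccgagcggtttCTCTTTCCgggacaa
EIF2D, chr1:206612451-206612480, minus strand: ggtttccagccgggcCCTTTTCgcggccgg
EIF2S3, chrX:24054941-24054970, plus strand: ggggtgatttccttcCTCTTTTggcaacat
EIF3D, chr22:36529152-36529181, minus strand: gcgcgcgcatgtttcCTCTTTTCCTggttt
EIF3F, chr11:7987322-7987351, plus strand: ttccgcttccgcctcCTTCTTTCTCgacaa
EIF3K, chr19:38619173-38619202, plus strand: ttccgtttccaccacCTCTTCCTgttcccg
EIF3M, chr11:32583816-32583845, plus strand: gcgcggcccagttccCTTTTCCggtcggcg
EIF4A2, chr3:186783562-186783591, plus strand: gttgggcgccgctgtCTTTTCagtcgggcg
EIF2B3, chr1:44986581-44986610, minus strand: attgggctgtcagtcagaggcggcgtggag
EIF3B, chr7:2354812-2354841, plus strand: ccccgtcgcacgcacatggctgggctgtag
EIF5B, chr2:99337374-99337403, plus strand: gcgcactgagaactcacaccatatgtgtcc

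The first 8 of these genes are all that hold the pyrimidine start among the 38 members read (21.1%), against 5.14% of 27305 genes in the table. Not among these 38 were EIF2S2, EIF3A, EIF3CL, EIF3G, EIF3L and EIF3J-AS1, for which no start site was read. Members on chromosome 8, EIF3E and EIF3H, were left out, while the set of all genes kept that chromosome. The shares given here therefore compare sets that are not quite alike. By start site the share was 15.1% of 53 member starts and 4.07% of 35116 starts. With BenSer, these 8 range from EIF3K, at -0.38 (-0.46 to -0.30), to EIF2D, at 0.10 (0.02 to 0.17). EIF2B3, EIF3B and EIF5B, with the lowest differences, start with A at the annotated base and have no such run. Over the window from 250 bases before to 50 after the start, read on both strands, the E-box CACGTG was in 17.0% of member starts and 7.26% of all starts. The ETS core CCGGAAG was in 20.8% and 10.3%, and the C/EBP-ATF element TGATGNAA in 1.89% and 3.62%. These are matches of letters and not sites of binding.

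With BenSer, 19 of the 46 initiation factor genes were lower by 1.2-fold or more than in untreated cells and 0 were higher. Among all 18976 genes with enough reads, 15% were lower and 10.4% higher at this threshold. The median difference of the members was -0.24, against -0.03 over all genes, and 38 members lay below 0 and 8 above. The 95% interval lay below 0 for 30 members, where all genes gave 25.8%, and above 0 for EIF1 and EIF2D, where all genes gave 18.2%. No member reached 1.5-fold, which 3.54% of all genes did in either direction. Summed over the members, the level was 4906 CPM in the control, 4547 CPM with GPNA and 4260 CPM with BenSer. Since CPM are shares of the reads, less initiation factor RNA and more of other RNA cannot be told apart, and neither can fewer cells and less RNA per cell.

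With GPNA, 6 of 45 members with enough reads were at least 1.2-fold lower, namely EIF5B, EIF4G1, EIF5AL1, EIF3J, EIF2B4 and EIF5A, and 0 were higher. Among all 18828 genes, 5.86% were lower and 5.18% higher. The median of the members was -0.11, against -0.03 over all genes, with 37 members below 0 and 8 above. The interval lay below 0 for 23 members (20.1% of all genes) and above 0 for EIF4A2 (9.77% of all genes). At 1.5-fold there were 0 members, and 0.404% of all genes.

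The counts at 1.2-fold, and the intervals of members close to 0, depend on the scaling. Of the 6 members lower with GPNA, all but EIF5B lay between -0.27 and -0.30, close to the threshold. With the trimmed mean of M values (TMM) of edgeR in place of the library totals, 12 members were lower with BenSer and 1 with GPNA, with member medians of -0.19 and -0.07. The same scaling gave 12.1% of all genes lower and 12.8% higher with BenSer, and 4.13% lower and 6.37% higher with GPNA. Under TMM the interval lay below 0 for 27 members and above 0 for 5 with BenSer (21.6% and 22.2% of all genes), and for 18 and 4 with GPNA (14.7% and 13.6%). Deeply read genes have narrower intervals, so members were also read against genes with a mean of at least 10 CPM, a limit chosen after the data were seen. Of the 39 members at that level, 41.0% were at least 1.2-fold lower with BenSer, against 19.3% of all such genes, and 12.8% against 5.49% with GPNA. The interval lay below 0 for 71.8% against 40.9% with BenSer, and for 59.0% against 37.6% with GPNA.

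**Figure D1:**
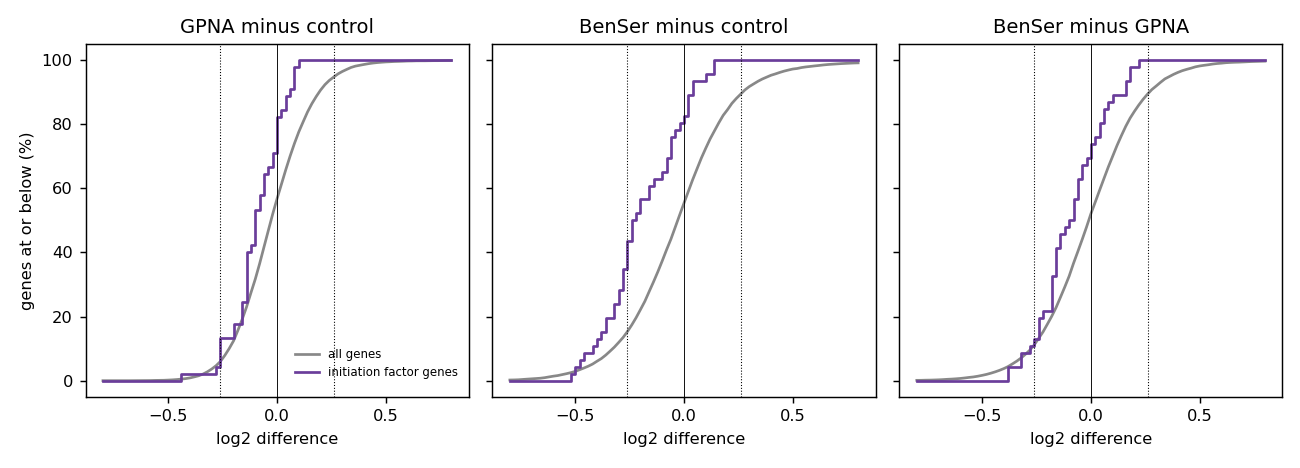
Share of genes (%) at or below each log2 difference in the 3 comparisons, for all genes with enough reads (grey) and for the initiation factor genes (purple). Dotted lines mark 1.2-fold; the purple line lies left of the grey line at 0 in each panel, and most clearly with BenSer, where the member median was -0.24.

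Between the treatments, given at different doses, 6 of 46 members (13%) were at least 1.2-fold lower with BenSer than with GPNA and 0 were higher. All 19056 genes gave 11% lower and 10.5% higher, so the lower share was close to that of all genes. The 6 were EIF2B3, EIF3K, EIF3F, EIF1AX, EIF3B and EIF2S3. The interval of the difference lay below 0 for 27 members (20.7% of all genes) and above 0 for EIF1AD, EIF2B4, EIF4G2 and EIF4G3 (21.2% of all genes). At 1.5-fold there were 0 members and 1.87% of all genes. The median was -0.10, against -0.01 over all genes.

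The study names 8 of these genes, a choice made on data that include these libraries, so they are no independent evidence of direction. These 8 (EIF2A, EIF2B3, EIF2B4, EIF2B5, EIF3B, EIF4G1, EIF4H and EIF5A) had a median of -0.35 with BenSer and -0.19 with GPNA. The other 38 members had -0.19 with BenSer and, over 37 with enough reads, -0.08 with GPNA. Of these other members, 13 were at least 1.2-fold lower with BenSer (34.2%, against 15% of all genes). With GPNA 3 were (8.11%, against 5.86%), of which EIF5AL1 had an interval that included 0. At a mean of at least 10 CPM, 2 of 31 were lower with GPNA (6.45%, against 5.49%), close to the share of all genes.

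**Figure D2:**
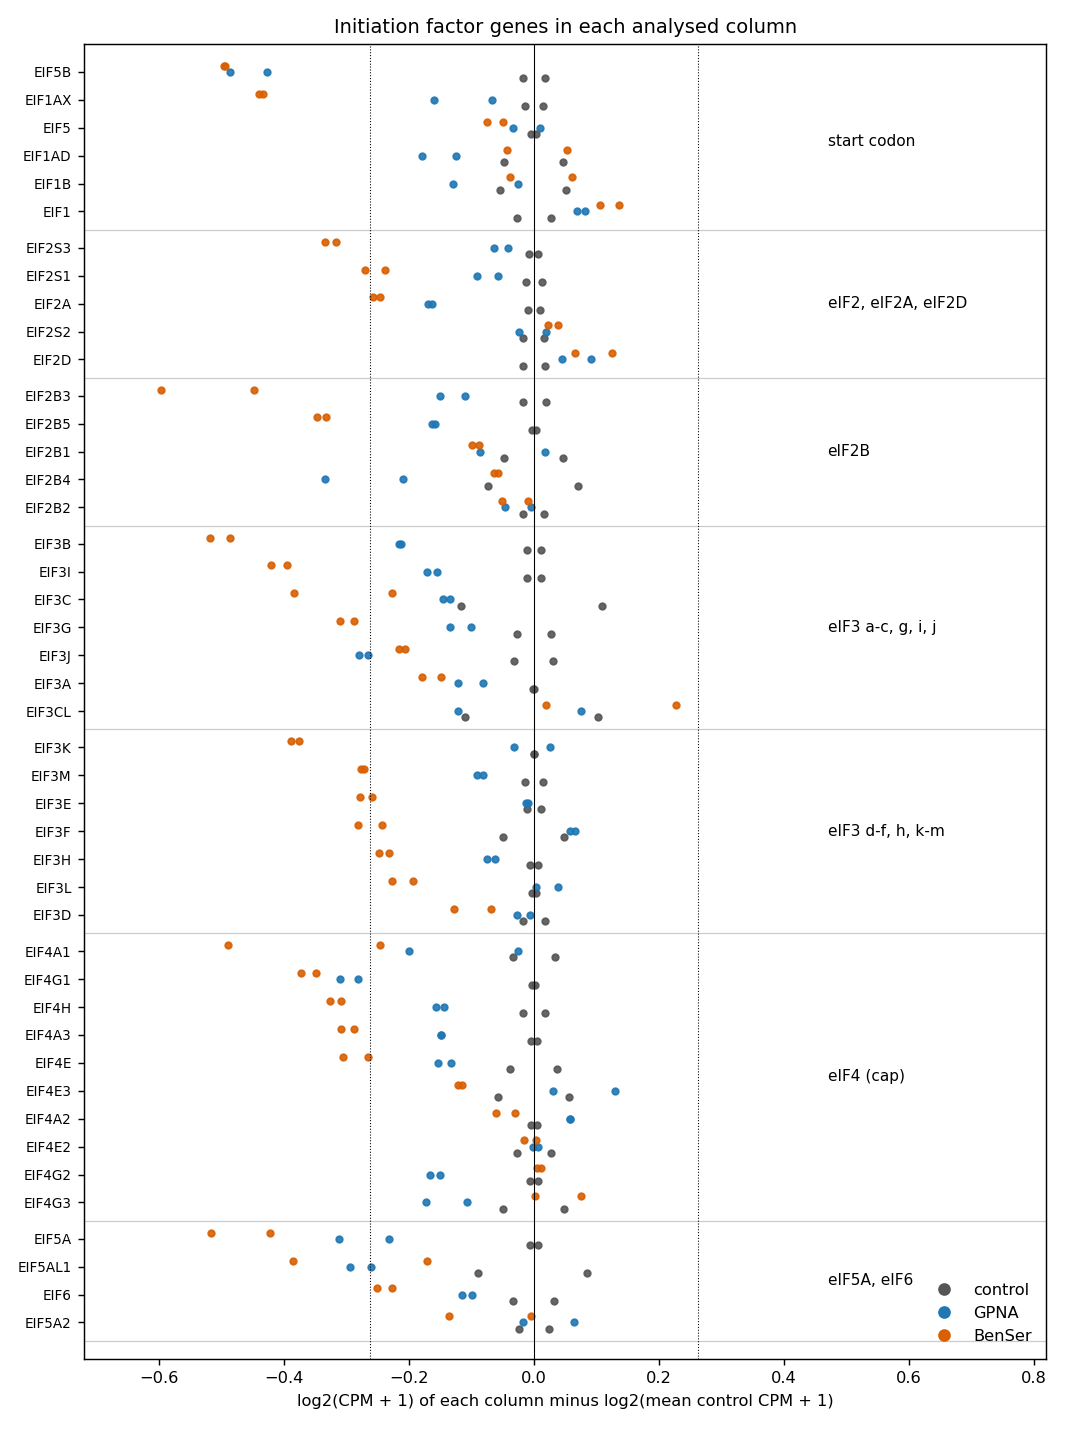
Each initiation factor gene in each of the 6 columns, as log2(CPM + 1) minus log2 of the control mean + 1 (horizontal axis), grouped by role; grey is control, blue GPNA and orange BenSer, and dotted lines mark 1.2-fold. The 2 columns of a group lie close together except for genes with few reads (EIF4A1, EIF3CL, EIF5AL1) and for EIF3C in the control. Orange lies left of grey for most genes.

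Among the 6 start codon and subunit joining genes, EIF5B and EIF1AX were at least 1.2-fold lower with BenSer (15% of all genes) and EIF5B with GPNA (5.86%). The group median was -0.03 with BenSer and -0.10 with GPNA. EIF5B, the GTPase that joins the large subunit (chr2:99953834-100017789, GRCh37), read 88.1 and 90.4 CPM in untreated cells, 63.5 and 66.1 CPM under GPNA and 63.0 and 63.1 CPM under BenSer. Both treatments lay below the control without overlap, at -0.46 (-0.52 to -0.39) with GPNA and -0.50 (-0.56 to -0.43) with BenSer. The difference between the treatments was -0.04 (-0.11 to 0.03). No other member had as low a difference with GPNA.

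EIF1AX, which encodes eIF1A and promotes scanning, read 68.7 and 70.1 CPM in untreated cells, 66.2 and 62.0 CPM under GPNA and 51.1 and 50.9 CPM under BenSer. The BenSer columns lay well below the others, at -0.44 (-0.51 to -0.37) against the control, and GPNA was at -0.11 (-0.18 to -0.04). EIF1, which guards start codon choice together with eIF1A (chr17:39845137-39848920, GRCh37), read 46.5 and 48.4 CPM in untreated cells, 49.9 and 50.3 CPM under GPNA and 51.1 and 52.2 CPM under BenSer. Its treated columns all lay above the control, at 0.12 (0.04 to 0.20) with BenSer and 0.07 (-0.01 to 0.16) with GPNA, the interval of the latter including 0.

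The GTPase activator EIF5 was read at a mean of 314 CPM in the control, 312 CPM with GPNA and 301 CPM with BenSer, and differed by -0.06 (-0.09 to -0.03) with BenSer. EIF1AD, named for its eIF1A-like domain, was at -0.15 (-0.26 to -0.04) with GPNA and at 0.01 (-0.09 to 0.11) with BenSer. EIF1B, the paralogue of EIF1, had intervals that include 0 in all 3 comparisons.

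The subunits of eIF2 had unequal differences. EIF2S3, the gamma subunit that binds GTP and the tRNA, read 173 and 171 CPM in untreated cells, 167 and 165 CPM under GPNA and 138 and 136 CPM under BenSer. It was lower with BenSer by a difference of -0.33 (-0.37 to -0.28), and only slightly so with GPNA, at -0.05 (-0.10 to -0.01). EIF2S1, the alpha subunit that is phosphorylated under stress, had group means of 138, 131 and 115 CPM in the same order, with differences of -0.07 (-0.12 to -0.02) and -0.25 (-0.30 to -0.21). EIF2S2, the beta subunit, read 134 and 138 CPM in untreated cells, 138 and 134 CPM under GPNA and 140 and 138 CPM under BenSer. Its intervals, from -0.05 to 0.05 with GPNA and from -0.02 to 0.08 with BenSer, include 0.

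EIF2A and EIF2D can deliver tRNA to the ribosome apart from eIF2. EIF2A read 71.7 and 70.8 CPM in untreated cells, 63.5 and 63.2 CPM under GPNA and 59.9 and 59.4 CPM under BenSer. All 4 treated columns lay below the control, at -0.17 (-0.24 to -0.10) with GPNA and -0.25 (-0.32 to -0.19) with BenSer. EIF2D read 54.3 and 53.0 CPM in untreated cells, 55.4 and 57.2 CPM under GPNA and 58.6 and 56.2 CPM under BenSer, and thus lay above the control in every treated column, by 0.07 (-0.01 to 0.14) and 0.10 (0.02 to 0.17).

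Among the 5 subunits of eIF2B, EIF2B3 and EIF2B5 were at least 1.2-fold lower with BenSer (15% of all genes) and EIF2B4 with GPNA (5.86%). EIF2B3, the gamma subunit (chr1:45316194-45452394, GRCh37, minus strand), read 13.9 and 14.3 CPM in untreated cells, 12.99 and 12.6 CPM under GPNA and 10.1 and 8.99 CPM under BenSer. Its difference of -0.52 (-0.67 to -0.37) with BenSer was the lowest of all members, on 653 control reads and 611 BenSer reads. With GPNA the interval, from -0.28 to 0.02, included 0 although both columns lay below the control.

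EIF2B5, the catalytic epsilon subunit, read 40.8 and 41.0 CPM in untreated cells, 36.4 and 36.5 CPM under GPNA and 31.9 and 32.2 CPM under BenSer. The groups stood in that order without overlap, at -0.16 (-0.25 to -0.07) with GPNA and -0.34 (-0.43 to -0.25) with BenSer. EIF2B4, the delta subunit (chr2:27587219-27593205, GRCh37, minus strand), read 27.0 and 24.4 CPM in untreated cells, 20.2 and 22.1 CPM under GPNA and 24.6 and 24.5 CPM under BenSer. It was lower with GPNA, at -0.27 (-0.39 to -0.16), whereas BenSer overlapped the control at -0.06 (-0.17 to 0.05). The GPNA difference fell short of 1.2-fold without control column 1 (-0.197), without GPNA column 1 (-0.210) and with TMM scaling (-0.233). The direct difference between BenSer and GPNA was 0.21 (0.10 to 0.32), the highest of all members.

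The alpha subunit gene EIF2B1 was at -0.09 (-0.184 to -0.002) with BenSer and at -0.03 (-0.13 to 0.06) with GPNA. The beta subunit gene EIF2B2 read 36.0 and 35.1 CPM in untreated cells, 34.4 and 35.4 CPM under GPNA and 34.3 and 35.3 CPM under BenSer. The columns of EIF2B2 overlapped between all groups.

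The subunits of eIF3 made up the largest group. They were read as a first and a second set, a grouping for reporting that does not give their places in the complex. In the first set (EIF3A, EIF3B, EIF3C, EIF3CL, EIF3G, EIF3I and the loosely bound EIF3J), the median was -0.15 with GPNA and -0.30 with BenSer. Of these 7, 4 were at least 1.2-fold lower with BenSer (57.1%, against 15% of all genes). EIF3B, a scaffold subunit (chr7:2393721-2420380, GRCh37), read 238 and 234 CPM in untreated cells, 203 and 204 CPM under GPNA and 168 and 165 CPM under BenSer. The groups did not overlap and stood at -0.21 (-0.25 to -0.18) with GPNA and -0.50 (-0.54 to -0.46) with BenSer. EIF3I, which binds EIF3B together with EIF3G, had group means of 177, 158 and 133 CPM, at -0.16 (-0.21 to -0.12) and -0.41 (-0.45 to -0.36). EIF3G was at -0.12 (-0.17 to -0.07) and -0.30 (-0.35 to -0.25), and EIF3A at -0.10 (-0.14 to -0.07) and -0.16 (-0.20 to -0.13). EIF3J alone of the first set was lower by at least 1.2-fold with GPNA, at -0.27 (-0.36 to -0.18), and its difference between BenSer and GPNA was 0.06 (-0.02 to 0.15).

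EIF3C and EIF3CL are near-identical copies on chromosome 16, so reads may be split or lost between them and their values are uncertain. EIF3CL held 8 reads without treatment, 8 with GPNA and 18 with BenSer, or 0.258 and 0.0867 CPM, 0.0775 and 0.236 CPM, and 0.373 and 0.188 CPM per column. Its difference of 0.13 with BenSer, the highest of the first eIF3 set, had an interval from -0.07 to 0.57.

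For the second set of eIF3 subunits, EIF3D, EIF3E, EIF3F, EIF3H, EIF3K, EIF3L and EIF3M, BenSer and GPNA differed by more than counting error. With BenSer the interval lay below 0 for 7 of 7 and the median was -0.26. With GPNA it lay below 0 for 2 of 7 (28.6%, EIF3H and EIF3M) and the median was -0.01. Among all genes with a mean of at least 10 CPM it lay below 0 for 40.9% with BenSer and 37.6% with GPNA. The share with GPNA was thus under that of all such genes. With TMM scaling the intervals of EIF3H and EIF3M included 0 with GPNA, and that of EIF3F lay above it, at 0.10 (0.04 to 0.17). In the direct difference between BenSer and GPNA, the interval lay below 0 for 7 of 7, with a median of -0.23. Of all genes with at least 10 CPM, 30.6% had such an interval. At 1.2-fold, 3 of 7 were lower with BenSer (EIF3E, EIF3K and EIF3M) and 0 with GPNA, against 19.3% and 5.49% of all genes with at least 10 CPM.

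EIF3K (chr19:39109722-39127595, GRCh37) read 52.5 and 52.5 CPM in untreated cells, 53.5 and 51.4 CPM under GPNA and 40.2 and 39.9 CPM under BenSer. GPNA thus bracketed the control while BenSer lay apart, at -0.38 (-0.46 to -0.30). EIF3F read 76.0 and 81.4 CPM in untreated cells, 82.5 and 82.0 CPM under GPNA and 64.6 and 66.3 CPM under BenSer, with 0.06 (-0.001 to 0.126) for GPNA and -0.26 (-0.33 to -0.20) for BenSer. EIF3D, the subunit that can bind the cap, read 136 and 139 CPM in untreated cells, 137 and 135 CPM under GPNA and 131 and 126 CPM under BenSer. Its difference was the smallest of the second eIF3 set, with -0.10 (-0.15 to -0.05) for BenSer. EIF3E, EIF3H, EIF3L and EIF3M lay between -0.21 and -0.27 with BenSer. For EIF3L, 41.1% of the exon bases are shared with another annotated gene on the same strand.

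**Figure D3:**
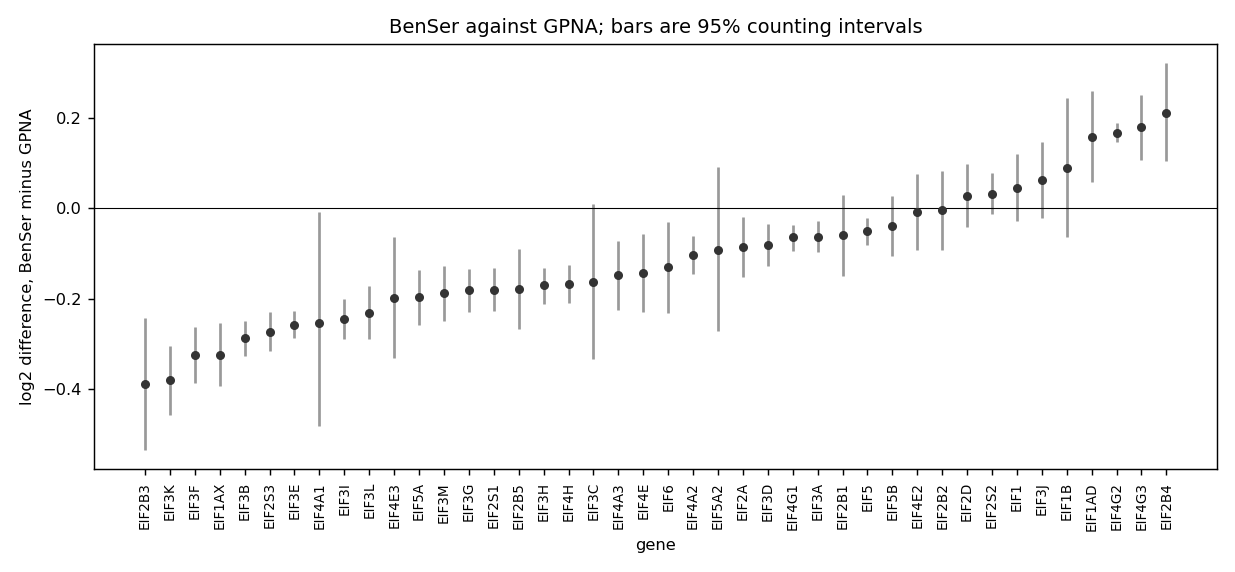
Log2 difference of BenSer minus GPNA (vertical axis) for each protein-coding initiation factor gene with at least 1 CPM in the control, in order of the difference; bars are 95% counting intervals. EIF2B3 (-0.39) and EIF3K (-0.38) stand at the low end, and EIF1AD, EIF4G2, EIF4G3 and EIF2B4 (0.16 to 0.21) have intervals above 0.

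The 10 cap and helicase genes of the eIF4 group had medians of -0.14 with GPNA and -0.20 with BenSer. EIF4G1, the scaffold that links cap, helicase and eIF3 (chr3:184032283-184053146, GRCh37), read 419 and 421 CPM in untreated cells, 345 and 339 CPM under GPNA and 324 and 330 CPM under BenSer. It was lower in both, at -0.30 (-0.33 to -0.27) with GPNA and -0.36 (-0.39 to -0.33) with BenSer. Its paralogue EIF4G2, which lacks the part that binds eIF4E (chr11:10818597-10830487, GRCh37, minus strand), read 650 and 655 CPM in untreated cells, 581 and 588 CPM under GPNA and 655 and 657 CPM under BenSer. EIF4G2 was lower with GPNA, at -0.16 (-0.18 to -0.13), while the BenSer and control columns overlapped, at 0.01 (-0.01 to 0.03), or 0.05 (0.03 to 0.07) with TMM scaling. EIF4G3 read 56.6 and 52.8 CPM in untreated cells, 50.7 and 48.4 CPM under GPNA and 57.7 and 54.7 CPM under BenSer. It showed the order of EIF4G2, with -0.14 (-0.22 to -0.06) and 0.04 (-0.03 to 0.11).

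Within the EIF4G family, EIF4G1 thus took 37.3% (36.9% to 37.7%) of the reads in the control, 35.1% (34.6% to 35.5%) with GPNA and 31.5% (31.1% to 31.8%) with BenSer. The share of EIF4G2 was 57.9% (57.4% to 58.3%), 59.9% (59.4% to 60.3%) and 63.1% (62.8% to 63.5%) in the same order. These intervals did not overlap between any of the groups. EIF4G3 took 4.85% (4.67% to 5.04%), 5.07% (4.88% to 5.27%) and 5.41% (5.24% to 5.58%). These are shares of reads and so include transcript length.

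EIF4E, the cap-binding protein, read 41.7 and 43.98 CPM in untreated cells, 39.0 and 38.4 CPM under GPNA and 34.5 and 35.4 CPM under BenSer. It was lower in both treatments, at -0.14 (-0.23 to -0.05) and -0.29 (-0.37 to -0.20). Its paralogue EIF4E2, a cap-binding protein known as a repressor, read 37.6 and 39.1 CPM in untreated cells, 38.5 and 38.3 CPM under GPNA and 37.9 and 38.4 CPM under BenSer. EIF4E2 overlapped between the groups, and its share of the family's reads was 40.3% (38.9% to 41.8%) in the control, 41.8% (40.4% to 43.2%) with GPNA and 44.5% (43.2% to 45.8%) with BenSer. EIF4E3 read 14.5 and 13.3 CPM in untreated cells, 14.2 and 15.3 CPM under GPNA and 12.7 and 12.7 CPM under BenSer. Its share was 14.6% (13.6% to 15.7%), 16.0% (15% to 17.1%) and 14.8% (13.9% to 15.8%), with overlapping intervals.

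EIF4H, which aids the helicase, read 186 and 190 CPM in untreated cells, 170 and 168 CPM under GPNA and 151 and 150 CPM under BenSer. The groups stood apart, at -0.15 (-0.19 to -0.11) with GPNA and -0.32 (-0.36 to -0.28) with BenSer. EIF4A3, a helicase of the exon junction complex, was at -0.15 (-0.23 to -0.07) and -0.30 (-0.37 to -0.22). The helicase gene EIF4A2 read 158 and 157 CPM in untreated cells, 164 and 164 CPM under GPNA and 155 and 151 CPM under BenSer. With library totals it was the only member whose interval lay above 0 with GPNA, at 0.06 (0.01 to 0.10), and with TMM scaling EIF1, EIF2D and EIF3F were above 0 as well. With BenSer EIF4A2 was at -0.05 (-0.089 to -0.001), a direction that turned to 0.001 (-0.043 to 0.044) with TMM and 0.002 (-0.041 to 0.046) with median-of-ratios scaling.

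EIF4A1 (chr17:7476142-7482324, GRCh37) was counted at 3.27 and 3.08 CPM in untreated cells, 3.10 and 2.63 CPM under GPNA and 2.52 and 1.97 CPM under BenSer. Annotated genes on the same strand, the readthrough gene SENP3-EIF4A1 and small nucleolar RNA genes among them, share 47.4% of its exon bases, so its level is uncertain. Its difference was -0.36 (-0.59 to -0.12) with BenSer and -0.11 (-0.35 to 0.15) with GPNA. The share of EIF4A2 in the reads of EIF4A1 and EIF4A2, 98.0% without treatment, 98.3% with GPNA and 98.6% with BenSer, carries the same uncertainty.

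**Figure D4:**
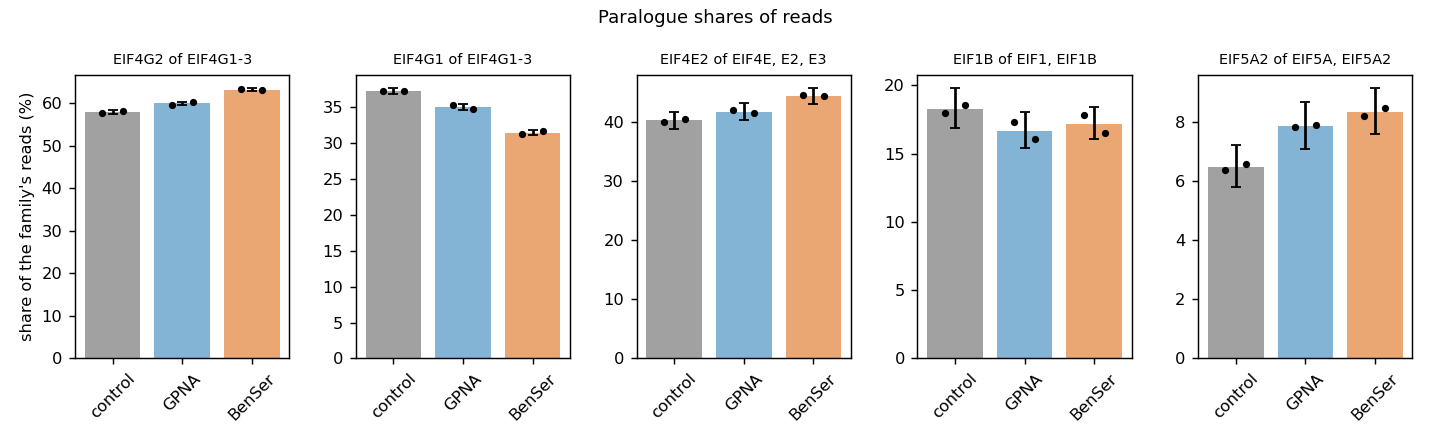
Share of a paralogue in the reads of its family (%, vertical axis from 0) in the control (grey), GPNA (blue) and BenSer (orange); bars are merged reads, error bars exact 95% intervals and points the 2 columns. The share of EIF4G2 was 57.9%, 59.9% and 63.1% and that of EIF4G1 37.3%, 35.1% and 31.5%.

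EIF5A, whose protein carries hypusine and helps ribosomes through difficult stretches (chr17:7210318-7215782, GRCh37), read 97.2 and 98.1 CPM in untreated cells, 78.5 and 83.0 CPM under GPNA and 68.0 and 72.6 CPM under BenSer. The groups stood in that order without overlap, at -0.27 (-0.33 to -0.21) and -0.47 (-0.53 to -0.41). EIF5A2, its paralogue, read 6.63 and 6.89 CPM in untreated cells, 6.67 and 7.11 CPM under GPNA and 6.06 and 6.73 CPM under BenSer, with overlap between all groups. The share of EIF5A2 in the reads of both was 6.48% (5.80% to 7.21%) in the control, 7.86% (7.09% to 8.69%) with GPNA and 8.34% (7.58% to 9.15%) with BenSer. The intervals of the control and BenSer did not overlap, and that of GPNA overlapped both.

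EIF5AL1, a copy of EIF5A, held 35 reads without treatment, 23 with GPNA and 29 with BenSer, and reads may be shared with EIF5A. Its differences of -0.28 with GPNA and -0.27 with BenSer had intervals that include 0. EIF6, which keeps the ribosomal subunits apart, was at -0.11 (-0.212 to -0.003) with GPNA and -0.24 (-0.34 to -0.14) with BenSer. Another annotated gene on the same strand shares 17.3% of the EIF6 exon bases. For the pair EIF1 and EIF1B, the share of EIF1B was 18.3% (16.9% to 19.8%) in the control, 16.7% (15.4% to 18.1%) with GPNA and 17.2% (16.0% to 18.4%) with BenSer. EIF1B read 10.2 and 11.1 CPM in untreated cells, 10.4 and 9.63 CPM under GPNA and 11.1 and 10.3 CPM under BenSer.

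The non-coding RNAs were low. EIF3J-AS1 was at 6.003 CPM without treatment, 5.60 CPM with GPNA and 5.33 CPM with BenSer, and EIF1AX-AS1 had 17, 9 and 14 reads. Their intervals included 0 in all 3 comparisons.

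The intervals over the 3 comparisons gave several patterns among 45 members with enough reads in each. The largest held 17 members (37.8%, against 5.69% of all genes and 12.1% of those with at least 10 CPM in a group) that were lower with GPNA, lower with BenSer and lower with BenSer than with GPNA, such as EIF3B, EIF5A, EIF2B5 and EIF4H. A further 8 (17.8%, against 9.25% and 12.7%; EIF2B3, EIF3D, EIF3E, EIF3F, EIF3K, EIF3L, EIF4A1 and EIF5) had an interval that included 0 with GPNA and were lower with BenSer than in both other groups. EIF1AD, EIF2B4, EIF4G2 and EIF4G3 showed another pattern, in which the 4 members (8.89%, against 4.11% and 7.13%) were lower with GPNA, included 0 with BenSer and were higher with BenSer than with GPNA. EIF3J and EIF5B (4.44%, against 5.68% and 9.36%, a share under those of all genes) were lower in both treatments with no difference between the treatments beyond counting error. EIF2B1 and EIF3C (4.44%, against 3.79% and 2.81%) were lower with BenSer than in the control, with the other intervals including 0. In the same way EIF1 and EIF2D (4.44%, against 2.3% and 1.79%) were higher. EIF4A2 (2.22%, against 0.895% and 1.84%) was higher with GPNA and, with library totals, lower with BenSer. EIF4E3 (2.22%, against 2.97% and 1.59%) differed only between the treatments, where BenSer was lower. For 8 members (17.8%, against 39.9% and 14.7%) the intervals included 0 throughout, and EIF3CL had too few reads with GPNA and the control. The patterns depend on the scaling, and with TMM 14 of the 45 members took another. The first then held 12 members (26.7%, against 3.95% and 8.31%), as EIF2S1, EIF2S3, EIF3H, EIF3M and EIF6 included 0 with GPNA. EIF4G2 and EIF4G3 were then higher with BenSer than in the control. The comparisons with the control share the control libraries, so their values are not independent of each other.

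Per kilobase of the union of exons, the eIF2 subunits were read at a median of 42.1 CPM per kb without treatment, 40.6 with GPNA and 33.6 with BenSer. The subunits of its exchange factor eIF2B were lower in level, with medians of 5.67, 5.06 and 4.74 CPM per kb, and eIF3 subunits (without the copies EIF3C and EIF3CL) lay between them, at 19.4, 19.5 and 15.8 CPM per kb. In the control all 3 eIF2 subunits, from EIF2S1 at 25.9 to EIF2S2 at 53.2 CPM per kb, were above all 5 eIF2B subunits, from EIF2B3 at 4.13 to EIF2B1 at 9.76 CPM per kb. Without these copies, the eIF3 subunits ranged from EIF3F at 5.20 to EIF3G at 41.3 CPM per kb. Levels depend on the length used, since EIF3E had 9.28 CPM per kb over the union of exons and 44.1 over its longest transcript.

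**Figure D5:**
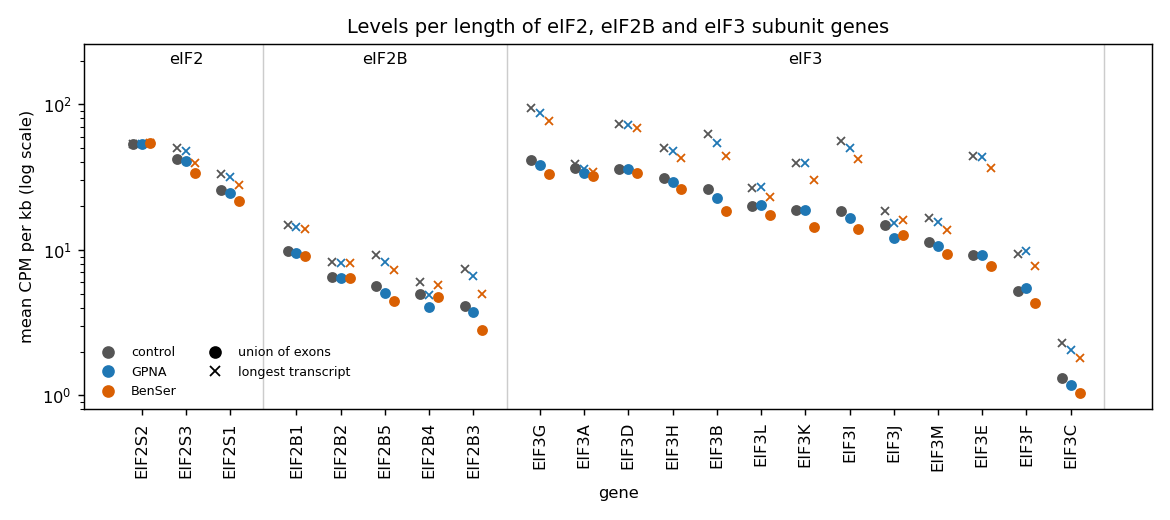
Mean CPM per kb (log scale, vertical axis) of the subunit genes of eIF2, eIF2B and eIF3 in the control (grey), GPNA (blue) and BenSer (orange), over the union of exons (circles) or the longest transcript (crosses). By either length the eIF2 subunits lie above the eIF2B subunits in every group.

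Partners of the initiation factors, a list of genes that bind, modify or recycle them, had medians of -0.08 with GPNA and -0.10 with BenSer over 20 listed genes. With BenSer 5 were at least 1.2-fold lower (25%, against 15% of all genes) and 1 higher (5%, against 10.4%). With GPNA 0 passed, against 5.86% of all genes lower and 5.18% higher. PABPC1, the poly(A)-binding protein that EIF4G1 contacts, had means of 968 CPM in the control, 847 CPM with GPNA and 706 CPM with BenSer, a difference of -0.45 (-0.47 to -0.44) with BenSer. ABCE1, which recycles ribosomes, was at -0.46 (-0.51 to -0.41) and PABPC4 at -0.40 (-0.49 to -0.32) with BenSer. DHPS, which begins hypusine formation on EIF5A, was at -0.27 (-0.36 to -0.17). Another annotated gene on the same strand shares 38.8% of the DHPS exon bases. MKNK1, a kinase of eIF4E, was at -0.36 (-0.49 to -0.24). The other eIF4E kinase gene, MKNK2, was higher with BenSer, from 53.6 to 69.0 CPM, or 0.36 (0.29 to 0.43). EIF4EBP1, the repressor of eIF4E that mTORC1 inactivates, was at 0.11 (0.03 to 0.19) with GPNA and 0.26 (0.18 to 0.34) with BenSer. PPP1R15A, which directs dephosphorylation of eIF2 alpha, was at 0.17 (0.09 to 0.25) and 0.25 (0.17 to 0.33). Neither EIF4EBP1 nor PPP1R15A reached 1.2-fold. Of their paralogues, EIF4EBP2 was at -0.02 (-0.08 to 0.04) with GPNA and -0.02 (-0.08 to 0.03) with BenSer. PPP1R15B was at -0.02 (-0.08 to 0.04) with GPNA and 0.23 (0.18 to 0.28) with BenSer.

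Other genes of the translation machinery are given for comparison. Over 82 ribosomal protein genes with enough reads, the median was -0.01 with GPNA and -0.32 with BenSer. Of these, 49 were at least 1.2-fold lower with BenSer (59.8%, against 15% of all genes) and 0 with GPNA (against 5.86%). Over 18 cytosolic aminoacyl-tRNA synthetase genes the medians were 0.09 and 0.05. The initiation factor genes stood at -0.11 and -0.24, and whether the lists differ was not tested.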

How the data were processed

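Total RNA of PC-3 cells was prepared with a stranded kit and sequenced in pairs. According to the methods, the authors trimmed the reads, aligned these with TopHat2 against GRCh37.p13 (hg19) and took counts per gene. The processing notes also list HTSeq 0.6.2p2. The deposited columns are named as counts, but the authors' values are CPM: 100% were whole reads over a library total within 0.01 of a read, so reads were recovered. The deposited fold changes, average log CPM, p-value and FDR of the authors' comparisons were not used. Of 16 value columns in both tables, 8 carry no sample label and were not used. The methods state 4 replicates per group, of which the labels name 2. Columns 1 and 2 of a group have no stated separate culture and were counted as 1 sample.

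Members and lists were chosen with earlier results of these data known. Named genes were the 8 the study names, the lowest and highest member of each role group with BenSer, and the paralogues. Other genes named were chosen after their values were seen.

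Differences, thresholds and intervals were computed in Python 3.11.15 (numpy 2.4.6, pandas 2.3.3, scipy 1.17.1). As alternatives, edgeR 4.0.16, limma 3.58.1 and DESeq2 1.42.0 (R 4.3.3) took the columns as 2 samples with Benjamini-Hochberg adjustment at 0.05. They compare libraries, not treatments, and edgeR called 1707 genes lower and 1474 higher with GPNA, and 3443 and 3594 with BenSer. Scripts were tested on simulated data. Gene coordinates and lengths came from GENCODE lifted to GRCh37. Some identity markers of the list are not reported here.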

Additional observations from a re-analysis of the deposited data

How the results depend on the processing

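The direction of the member medians was the same under all alternatives run. With GPNA, 1 member was lower under TMM scaling (median -0.070), 1 under median-of-ratios scaling (-0.071) and 3 under scaling to the listed genes (-0.079). Of all genes, 4.13%, 4.15% and 4.48% were lower in that order. With BenSer, 12 were lower under TMM (-0.194) and 12 under median-of-ratios scaling (-0.193), against 12.1% and 12% of all genes. Scaling to the listed genes gave a median of -0.228. These scalings shift all genes together, and the median of all genes by less than 0.1. A pseudocount of 0.1 gave 1 higher member with BenSer against control (median -0.251) and 1 against GPNA. It gave 7 of 45 members lower with GPNA, close to the 14.7% of all genes, and 21 of 46 with BenSer (25%). Between treatments it gave 7 of 46 lower, against 21.9% of all genes. Filters at 1 CPM and at 10 CPM each moved the median between treatments to -0.131. Leaving out single columns gave 4 to 6 lower members with GPNA, 17 to 19 with BenSer and 5 to 7 between treatments, with medians of -0.109 to -0.090, -0.241 to -0.223 and -0.128 to -0.103. Of all genes, 7.52% to 7.8%, 16.1% to 16.7% and 12.2% to 12.5% were then lower. Without GPNA column 1, 4 of 46 members were lower with GPNA and 5 of 46 between treatments. These shares were close to those of all genes (7.8% and 12.4%). Between treatments 0 to 2 members were higher, 2 of them without GPNA column 2.

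At an adjusted p under 0.05, with columns as samples, edgeR called 12 members lower and 3 higher with GPNA (1707 and 1474 of all 18828 genes), 26 and 4 with BenSer (3443 and 3594 of 18976), and 24 and 4 between treatments (3126 and 3497 of 19056). limma called 2, 24 and 13 members lower in the same order (279, 3099 and 2112 of all genes). DESeq2 called 8 lower with GPNA (699 of all genes), 23 lower and 2 higher with BenSer (2021 and 2146), and 16 and 2 between treatments (1658 and 2003). With the replicate block, edgeR called 13 lower and 3 higher with GPNA, 26 and 4 with BenSer, and 25 and 4 between treatments. The column numbers did not pair the samples, with correlations of deviations of 0.015, 0.022 and 0.044 over 10060 genes. A test counts other genes than a fold threshold by its construction.

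Over the longest transcript, the medians were 49.7, 48.0 and 39.7 CPM per kb for eIF2 in the control, GPNA and BenSer, 8.26, 8.12 and 7.25 for eIF2B, and 41.8, 41.6 and 35.5 for eIF3. Of 533 values of 25 named genes under alternatives, 514 stayed within the counting interval of the reported value. A further 17 left it with the same sign. The other 2 were EIF4A2 with BenSer, lower by its interval, which turned to 0.001 with TMM and 0.002 with median-of-ratios scaling. Calls could change without a change of sign. EIF4G1 with GPNA went from -0.296 to -0.256 with TMM and no longer reached 1.2-fold. EIF4G2 with BenSer went from 0.008 to 0.054 with TMM, where its interval lay above 0. With TMM or median-of-ratios scaling, 14 of 45 members changed in whether an interval lies below, above or around 0. These scalings of the intervals were chosen after the data were seen. Paralogue shares kept within their intervals when a column was left out. The depth limits EIF3CL, EIF5AL1 and EIF1AX-AS1, with 8 to 35 reads per group.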
